A study of Cucumis sativus with 4 samples.

Results

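A group of 113 genes that were near silent in wild-type axillary buds and present in buds of CsBRC1-RNAi plants was described in cucumber, Cucumis sativus. The genes were selected on their measured values: under 0.5 in both wild-type libraries and at least 1 in both CsBRC1-RNAi libraries. They made up 0.636% of the 17770 genes in the table. Because all 4 libraries chose the members, the difference between the genotypes is given as a description and carries no test.

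The libraries were made from lateral buds, taken at one and the same node when the plants were 2 months of age. There were 2 wild-type and 2 CsBRC1-RNAi libraries, the latter from plants transformed with an RNA interference construct built on 585 bp of the coding sequence of CsBRC1. The labels name the inbred line R1461 as the recipient and an empty-vector transformation control, but the genotype label of the control libraries is wild type. They do not say how many transgenic lines were sampled, or whether a library came from 1 plant or a pool, so the spread within a genotype may be technical.

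CsBRC1 belongs to the BRANCHED1 group of TCP transcription factors. In flowering plants these factors act inside axillary buds and hold back their outgrowth, and losing them lets more buds grow into branches. In the study's title CsBRC1 acts by repressing CsPIN1b and CsPIN3, carriers that move the hormone auxin out of cells. RNA interference lowers a transcript through small RNAs cut from a double-stranded RNA, and it often leaves part of the transcript in place.

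The identifiers carry no names. None of the 17770 (0 matched) was found in the RefSeq cucumber gene table of 23999 genes, so no function, length or sequence is given for any gene. For the same reason neither the level of CsBRC1 nor bud markers could be used to check the labels. An identifier holds Csa, a chromosome digit, G and a running number, and these were read as the chromosome and the order along it, without a check against an assembly. Values are normalised read counts per gene and not per length, so a higher value in one gene than in another is not a higher number of transcripts.

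Each library held between 26912976 and 32385236 recovered reads, and 1 read was worth between 0.028 and 0.0392. A count of 0 in both wild-type libraries allows up to 3 reads over the group, a value of 0.0469. Limits and intervals of this kind cover counting error only. In such bulk RNA, more cells that express a gene and more RNA per cell cannot be told apart.

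The table itself had been filtered, and this bears on who the members are. All 17770 genes had a CPM of at least 1, taken over the table's recovered reads, in at least 2 libraries. The 113 members reached that level only in the CsBRC1-RNAi libraries. Every gene under 0.5 in both wild-type libraries (113 of 113) also met the CsBRC1-RNAi limit, so that limit removed no gene. A gene near silent in wild type and present in 1 CsBRC1-RNAi library would not be in the table.

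The wild-type limit decided which genes were members. The members nearest to it were Csa5G598740, at 0.475 and 0.496 in wild type 1 and 2 against 2.24 and 1.71 in CsBRC1-RNAi 1 and 2, and Csa4G296210, at 0.308 and 0.496 against 1.45 and 1.31. The nearest genes beyond it were Csa4G296910, at 0.503 and 0.106 against 2.63 and 2.56, and Csa3G850530, at 0.531 and 0.106 against 1.33 and 2.14. Members and non-members thus met at the wild-type limit without a gap. At the other limit 4 members tied at 1.08 (33 reads) in CsBRC1-RNAi 2, where CsBRC1-RNAi 1 had 2.12 in Csa1G434130, 3.18 in Csa2G190790, 3.3 in Csa5G137400 and 2 in Csa6G301010. No gene under 0.5 in both wild-type libraries lay beyond that limit.

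Most members reached only a low value in the CsBRC1-RNAi buds. The mean of the CsBRC1-RNAi values had a median of 4.01 over the members, with quartiles of 2 and 9.04 and a range from 1.14 to 1882. The mean was under 5 in 68 members and at least 10 in 23, or 20.4%, whereas 70.7% of all genes in the table had a CsBRC1-RNAi mean of at least 10. Only 4 members had a mean of 100 or more. The median member value was 2.83 in CsBRC1-RNAi 1 and 3.75 in CsBRC1-RNAi 2, below which 11.6% and 13.1% of all genes lay in those libraries.

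**Figure D1:**
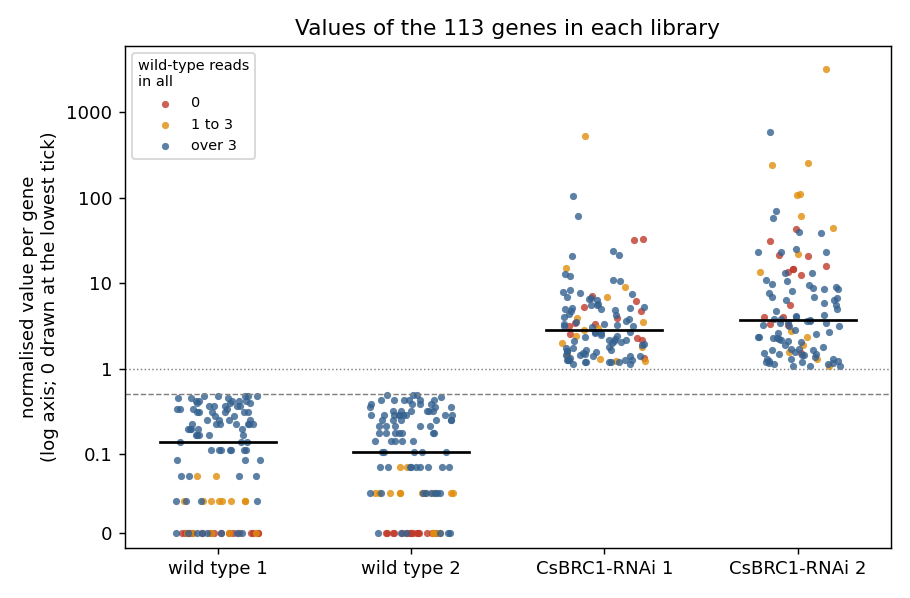
Normalised value (log axis) of each of the 113 genes in the 4 libraries; points are genes coloured by their wild-type reads summed over both libraries, black bars are medians, and the dashed and dotted lines mark the limits of 0.5 and 1. Wild-type medians are 0.14 and 0.106 and CsBRC1-RNAi medians 2.83 and 3.75, and the gap between the lines is set by the rule.

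In wild type the members ranged from no read at all to a low but counted signal. There were 15 members with 0 reads in both wild-type libraries, 15 with 1 to 3 reads in all, 31 with 4 to 10, 35 with 11 to 20 and 17 with more, up to 31. A read was found in both wild-type libraries for 76 members, in wild type 1 alone for 9 and in wild type 2 alone for 13. The members together took 682 reads of wild type 1 and 509 of wild type 2, against 30666 of CsBRC1-RNAi 1 and 167271 of CsBRC1-RNAi 2. In the CsBRC1-RNAi libraries the fewest reads of any member were 29 and 33. Among the 83 members with over 3 wild-type reads, the mean CsBRC1-RNAi value was between 3.4 and 5502 times the wild-type mean, with a median of 17.1-fold. For the 15 members with no wild-type read the CsBRC1-RNAi mean was at least 39.1-fold to at least 805-fold higher than the value allowed by 3 reads over the wild-type group.

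A single gene carried much of the reads. Csa3G104850 had 0.028 and 0 in wild type 1 and 2 against 529.6 and 3234 in CsBRC1-RNAi 1 and 2. It held 44% of the members' reads in CsBRC1-RNAi 1 and 58.8% in CsBRC1-RNAi 2. Csa4G637770 was next, at 0.0559 and 0.0709 in the wild-type libraries and at 105 and 592 in the others. Both genes were nearly absent from both wild-type libraries and stood several times higher in CsBRC1-RNAi 2 than in CsBRC1-RNAi 1, with ratios of 6.11 (95% exact interval 6 to 6.22) and 5.62 (5.4 to 5.86).

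The CsBRC1-RNAi libraries agreed for many members and differed widely for others. Of the 113 members, 70 (61.9%) were within 2-fold between the libraries, and 49 of them within 1.5-fold. Over the 17086 genes of the table that met the CsBRC1-RNAi limit, 95.3% were within 2-fold. Pearson's r of the log2 values was 0.668 over the 113 members (Spearman's rho 0.587) and 0.967 over the 17086 genes. Genes are not independent replicates and each library's points share its depth and scaling, so these coefficients are descriptions.

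Where the libraries differed, CsBRC1-RNAi 2 was most often the higher. It was at least 2-fold above CsBRC1-RNAi 1 in 35 members (31%), against 3.07% of the 17086 genes. The opposite held in 8 members (7.08%), against 1.67%. At 4-fold the count was 23 members (20.4%), against 0.825% of the genes, and 0 members went the other way, against 11 genes in all. At 8-fold it was 10 members (8.85%), against 0.275%. Members were 16.3% of all genes at least 4-fold above in CsBRC1-RNAi 2 and 21.3% of those at least 8-fold above, and 7 of the 19 genes at least 16-fold above. The median log2 ratio of CsBRC1-RNAi 2 to 1 was 0.22 over the members, with quartiles of -0.39 and 1.46, and -0.005 over the 17086 genes, with quartiles of -0.21 and 0.19. The difference between 2 libraries of 1 genotype has no replicate check, and whether line, plant, bud stage or library preparation moved with it was not tested.

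The share of members that were apart was largest in the class with the highest means. With a CsBRC1-RNAi mean of at least 10, 17 of 23 members (73.9%) were at least 2-fold apart, against 3.09% of 12548 genes in that range. From 5 to under 10 the count was 12 of 22 members (54.5%), against 7.78% of 2135 genes. Under 5 it was 14 of 68 (20.6%), against 10.7% of 2403 genes. A member with a low value in CsBRC1-RNAi 1 had to stay at 1 or more there, so the rule leaves more room for a large ratio in members with a high mean. The classes were also cut by the mean of the same values that make the ratio. A high value in CsBRC1-RNAi 2 alone raised both, as in Csa5G172880 at 1.29 and 111. No link between level and disagreement is therefore read from the classes. The median log2 ratio was 2.61 in the highest class, 0.48 in the middle and -0.08 in the lowest, where the table's genes had -0.02, 0.04 and 0.11.

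**Figure D2:**
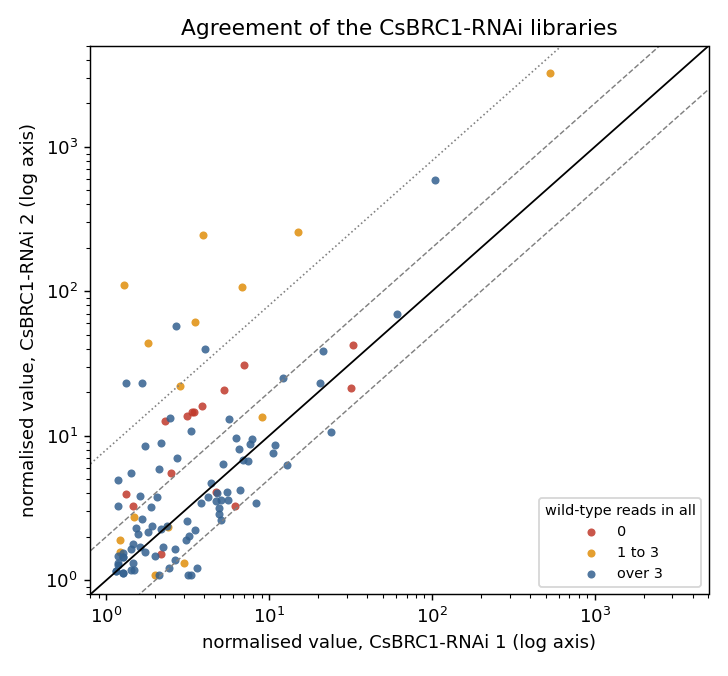
Normalised value of each of the 113 genes in CsBRC1-RNAi 1 (x) and CsBRC1-RNAi 2 (y), both on log axes and coloured by wild-type reads summed over both libraries; the solid line marks equal values, dashed lines 2-fold and the dotted line 8-fold differences. The 10 genes above the dotted line run from 1.29 to 15 in CsBRC1-RNAi 1 and are at 23.3 or more in CsBRC1-RNAi 2.

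The 10 members at least 8-fold higher in CsBRC1-RNAi 2 lay on 6 chromosomes. In the wild-type libraries together they had between 1 and 20 reads, and 6 of them had 3 or fewer. The widest ratio was that of Csa5G172880, at 0.028 and 0.0709 in wild type, 1.29 in CsBRC1-RNAi 1 and 111 in CsBRC1-RNAi 2, a ratio of 86 (95% exact interval 61.1 to 125). Csa6G318700 had 0 and 0.0354 in wild type, then 3.92 and 244, a ratio of 62.1 (51 to 76.4). Both genes stood far higher in CsBRC1-RNAi 2 than in CsBRC1-RNAi 1, and their place above wild type in each is set by the rule. Csa6G497180, at 0.028 and 0.0709 in wild type, had 1.8 and 44.1 in CsBRC1-RNAi, a ratio of 24.4 (18.2 to 33.5). Csa3G827350 had 0 and 0.0354 in wild type against 15 and 258, and Csa5G517830 had 0.028 and 0.0354 against 6.83 and 107. In both, CsBRC1-RNAi 1 was also clearly above its limit of 1. Csa2G349700 had 0.028 and 0 in wild type against 3.49 and 61.7. Csa6G101980 had 0.336 and 0.213 against 2.67 and 57.4, so its wild-type signal was counted in both libraries, with 12 and 6 reads.

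Other members with high values were nearly equal in the CsBRC1-RNAi libraries. Csa7G378520 had 61 and 69.8 in CsBRC1-RNAi (65.4 ± 6.21, SD, n = 2), a ratio of 1.14 (1.07 to 1.22). Its wild-type values were 0 and 0.425, with all 12 reads in wild type 2. Csa7G064070 had no wild-type read and 32.8 and 42.7 in CsBRC1-RNAi (37.8 ± 7.06, SD, n = 2), at least 805-fold above the value of 3 reads. That both genes stood above wild type follows from the rule, and they were grouped here because their CsBRC1-RNAi values were close.

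In the other direction the ratios were smaller. Among members with a mean of at least 5, CsBRC1-RNAi 1 exceeded CsBRC1-RNAi 2 most in Csa4G006160, at 8.36 and 3.42, a ratio of 2.45 (1.93 to 3.12). It was followed by Csa4G047950, at 23.9 and 10.7, with 2.24 (1.96 to 2.57), and by Csa1G423290, at 12.9 and 6.28, with 2.06 (1.72 to 2.47). Their wild-type values were 0.392 and 0.0354, 0.168 and 0.177, and 0 and 0.319. That all 3 were above their wild-type values in the lower CsBRC1-RNAi library follows from the rule. The lowest means were those of Csa2G058100, at 1.14 and 1.15 in CsBRC1-RNAi against 0.0559 and 0.425, and Csa7G450590, at 1.14 and 1.15 against 0.168 and 0.319. Csa3G696870 and Csa5G597480 tied next, both at 1.26 and 1.12, against 0.308 and 0.39 and against 0.168 and 0.248. These 4 members agreed closely between the CsBRC1-RNAi libraries, and their means were 3.4 to 5.71 times those in wild type.

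The 15 members without a wild-type read fell into several patterns. In 5 of them the CsBRC1-RNAi libraries were within 2-fold: Csa7G064070, Csa2G196890 at 32 and 21.4, Csa3G845470 at 6.16 and 3.25, Csa3G147790 at 4.75 and 4.07, and Csa3G104900 at 2.16 and 1.51. Another 7 had nearly one ratio of CsBRC1-RNAi 2 to 1, from 3.88 to 5.52. Their 95% exact intervals all shared the range from 4.18 to 4.71. These were Csa3G101820, Csa6G091280 and 5 genes of chromosome 4, and they were grouped after their ratios had been seen, with 3.5 as the limit. The last 3 lay between, with ratios of 2.98 in Csa1G071290, 2.26 in Csa4G014080 and 2.2 in Csa5G478110. None of the 15 was 2-fold higher in CsBRC1-RNAi 1. The median ratio of these 15 was 2.98, with 10 at least 2-fold higher in CsBRC1-RNAi 2. The ratio was larger among the 15 members with 1 to 3 wild-type reads. Its median there was 6.11, with 8 at least 2-fold higher in CsBRC1-RNAi 2 and 1 in CsBRC1-RNAi 1. Among the 83 members with over 3 wild-type reads the median ratio was 1.06, with 17 at least 2-fold higher in CsBRC1-RNAi 2 and 7 in CsBRC1-RNAi 1.

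By position the members were spread over all 7 chromosomes. Chromosome 2 held 22, or 1% of its 2192 genes in the table, and chromosome 3 held 15, or 0.401% of its 3738 genes. Chromosome 5 held 20 (0.852%), chromosome 4 held 16 (0.746%), chromosome 7 held 11 (0.632%), chromosome 6 held 16 (0.542%) and chromosome 1 held 13 (0.504%). None lay among the 79 unplaced genes. The 7 counts of members with a CsBRC1-RNAi mean of at least 10 ran from 2 on chromosome 5 to 4 on chromosomes 1, 4 and 7. When each chromosome's identifier order was cut into 5 equal parts, these held 23, 29, 24, 21 and 16 members from first to last. From one member to the next there was a median of 90 places in the order and at most 660.

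**Figure D3:**
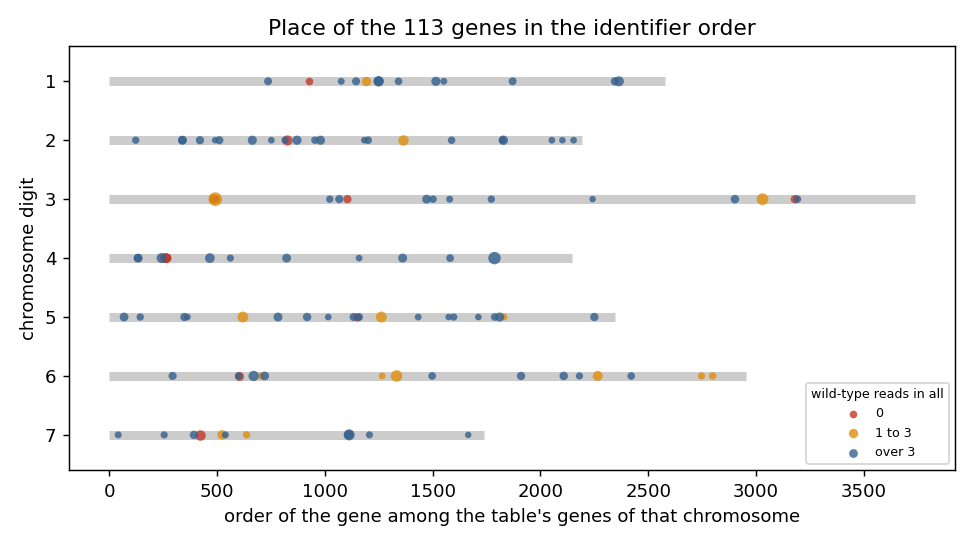
Place of the 113 genes in the order of the table's genes on each chromosome (x, order number; y, chromosome digit); points are genes coloured by wild-type reads summed over both libraries, larger points have a higher CsBRC1-RNAi mean, and grey bars span the genes of the table. All 7 chromosomes hold members, from 11 on chromosome 7 to 22 on chromosome 2. Of the 15 red points (no wild-type read), 6 lie together near the start of chromosome 4 and the rest are on other chromosomes.

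Some members lay side by side. There were 7 pairs of members next to each other in the order, involving 12 members, and 21 members had another within 5 places. Of these 12 members, 6 lay in a single stretch of chromosome 4, described below. Whether members lie together more often than other genes do was not tested. The pairs outside that stretch were as follows. In Csa1G188670 and Csa1G188680 the values were 0.028 and 0.142 in wild type against 12.2 and 25 in CsBRC1-RNAi, and 0.0559 and 0.283 against 21.3 and 38.8. These neighbours had close ratios of CsBRC1-RNAi 2 to 1, of 2.04 and 1.82. Csa2G023910 had 0.0839 and 0.106 against 4.39 and 4.73, and Csa2G023920 had 0.448 and 0.354 against 7.61 and 8.84, with ratios of 1.08 and 1.16. Csa6G089270, at 0.112 and 0.177 against 1.92 and 2.37, and Csa6G091280, at 0 in both against 3.45 and 14.6, were less alike, with ratios of 1.23 and 4.23. Without strand or sequence, reads shared between overlapping or near-identical neighbours cannot be told apart from separate transcripts.

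The densest group was a stretch of 11 neighbouring genes of the table on chromosome 4, from Csa4G013580 to Csa4G015690, in which 6 were members. None of the 6 had a read in either wild-type library. In CsBRC1-RNAi 1 and 2, Csa4G013580 had 3.14 and 13.7, Csa4G014080 1.45 and 3.29, and Csa4G015090 7.06 and 30.8. Beyond 5 other genes, Csa4G015170 had 3.34 and 14.6, Csa4G015180 3.88 and 16.1, and Csa4G015690 2.28 and 12.6. All 6 were higher in CsBRC1-RNAi 2, and their summed reads, 539 and 2768, gave a ratio of 4.3 (95% exact interval 3.92 to 4.72). The sum does not stand for each gene: Csa4G014080 had a lower ratio, of 2.26 (1.54 to 3.4). The 5 genes between the members had ratios from 0.997 to 1.8 and were read in all 4 libraries. Csa4G015130, for example, had 22.9 and 26.6 in wild type against 21.1 and 22.2. Csa4G015110 was lower in CsBRC1-RNAi, at 0.51 and 0.657 against 2.41 and 4.04, but was not called (log2 change -1.39, limma adjusted p = 0.0665). The single gene of the 5 that was called, Csa4G015140, fell from 61.8 and 49.4 to 13.6 and 14.9, a log2 change of -1.89 with an adjusted p of 0.0235 by limma. With each library left out in turn, its limma log2 change stayed between -1.73 and -2.04. On the recovered reads it was also called lower by edgeR (adjusted p = 0.0297) and DESeq2 (adjusted p = 6.67e-10).

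**Figure D4:**
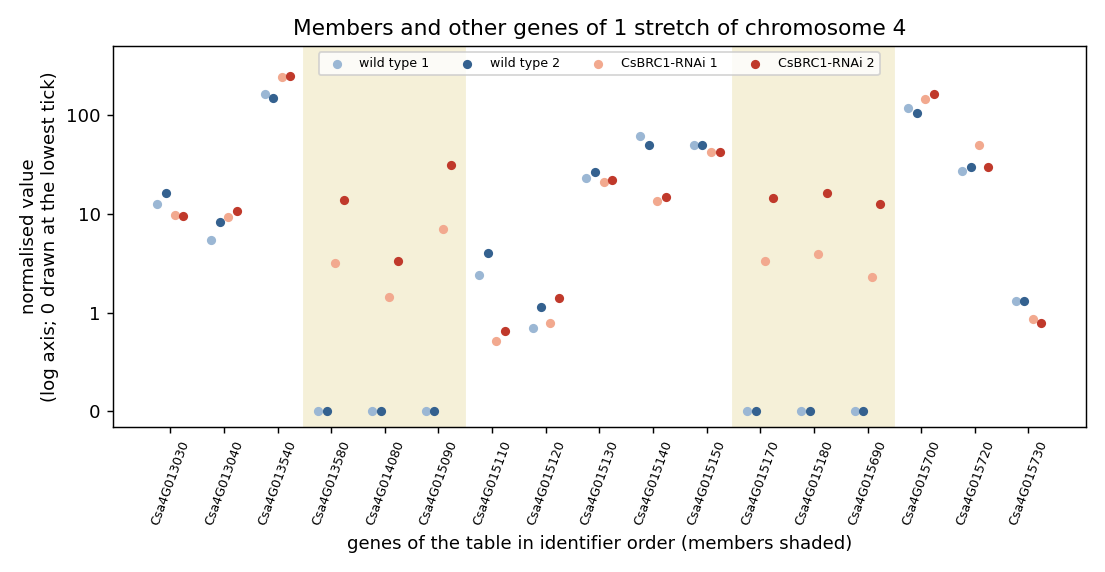
Normalised value (log axis, 0 drawn at the lowest tick) of 17 genes of the table in identifier order on chromosome 4, in the 4 libraries; shaded genes are members. The 6 shaded genes are at 0 in both wild-type libraries and higher in CsBRC1-RNAi 2 than in CsBRC1-RNAi 1, while the genes between and around them are above 0 in all 4 libraries.

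Across all genes, limma at an adjusted p under 0.05 called 41 of the 113 members (36.3%) higher in CsBRC1-RNAi, against 2.2% of the 17726 genes tested. edgeR on the recovered reads called 40 (35.4%), against 1.44%, and DESeq2 104 (92%), against 12.8%. The rule used the same contrast, so nothing is read from these counts. By the agreement of the CsBRC1-RNAi libraries, limma called 32 of the 70 members within 2-fold and 3 of the 23 at least 4-fold higher in CsBRC1-RNAi 2. Limma sets a change against the spread within the genotypes, so fewer calls where the libraries differ follow from the method. Nothing is read from this split either. Leaving out wild type 2 removed every limma call, and leaving out CsBRC1-RNAi 2 nearly every call, among the members and over all genes alike. Fits without 1 of the 4 libraries leave 1 library in a genotype, so their counts are not read.

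The genes beside the members were not used by the rule. There were 210 genes that lay next to a member and were not members, and all were tested. Of these, limma called 13 (6.19%) higher in CsBRC1-RNAi, against 2.2% of all genes tested, and 3 (1.43%) lower, against 1.41%. Their log2 change had a median of 0.07 and quartiles of -0.42 and 0.59, and over all genes tested the median was -0.006 and the quartiles -0.41 and 0.48. So the typical flanking gene was about as in the rest of the table. With 2 genes on each side the counts were 16 of 417 higher (3.84%) and 8 lower (1.92%). No test was made of the difference between these shares. Leaving out wild type 2, CsBRC1-RNAi 1 or CsBRC1-RNAi 2 removed every limma call among the 210, and few or no calls remained over all genes. Without wild type 1, more genes were called in both directions, among the 210 and over all genes alike. Such fits leave 1 library in a genotype, so their counts are not read.

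Several of these 13 genes stood beside members with high values. Csa2G196900, next to Csa2G196890, had 46.4 and 36.4 in the wild-type libraries (mean 41.4 ± 7.06, SD, n = 2) and rose to 313 and 287 (299.7 ± 18.3). Limma gave it a log2 change of 2.84 ± 0.2 (SE) and an adjusted p of 0.018. The member was at 10.2% and 7.47% of this neighbour's value in CsBRC1-RNAi and at 0 in wild type. Csa7G064050, beside Csa7G064070, rose from 24.4 and 12.9 to 122 and 90.9, a log2 change of 2.5 (adjusted p = 0.0343 by limma), and here the member was at 26.8% and 47% of the neighbour in CsBRC1-RNAi and at 0 in wild type. Csa4G047960, beside Csa4G047950, rose from 11.3 and 10.3 to 87.8 and 71.1, with a limma adjusted p of 0.018. Csa7G378530, beside Csa7G378520, rose from 2.24 and 3.93 to 27.3 and 28.7, with a limma adjusted p of 0.0216. This was the single pair of the 13 in which the member's value exceeded its neighbour's in a library, at 223% and 243% in CsBRC1-RNAi. In 10 of the 13 pairs the member was a smaller part of its neighbour in both wild-type libraries than in both CsBRC1-RNAi libraries. The members were chosen for their low wild-type values, which lowers that share, and reads running over from one gene to the next were not tested.

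Of the remaining flanking genes called, Csa1G542510 changed most, from 11.1 and 25.1 to 100.1 and 188 (log2 change 2.96, adjusted p = 0.0427 by limma). Csa2G023900 lay beside the pair Csa2G023910 and Csa2G023920 and rose from 0.559 and 2.27 to 10.4 and 16, so that 3 genes in a row were higher in CsBRC1-RNAi. Csa6G107830 rose from 1.17 and 0.815 to 9.42 and 9.43, Csa2G379990 from 115 and 200 to 561 and 552, and Csa5G579020 from 0.699 and 0.673 to 6.24 and 4.04. Csa4G006100 went the other way, from 10 and 6.52 to 0.628 and 1.12, a log2 change of -2.3 with an adjusted p of 0.0351 by limma, although the member beside it, Csa4G006130, stood at 0.308 and 0.213 in wild type against 5.22 and 6.41.

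The opposite rule, under 0.5 in both CsBRC1-RNAi libraries and at least 1 in both wild-type libraries, held for 58 genes. Their wild-type mean had a median of 1.97 and reached 23.4, and it was 10 or more in 1 gene, against 23 such members. A single one of the 58 had 0 reads in both CsBRC1-RNAi libraries, against 15 members without a wild-type read. The wild-type libraries were at least 2-fold apart in 13 of the 58 (22.4%), and the CsBRC1-RNAi libraries in 43 of the 113 members (38.1%). The members had a higher level, with a median of 4.01 in CsBRC1-RNAi. The share of all genes this far apart between the wild-type libraries was not taken. These shares are therefore not compared. The 58 genes held 1 neighbouring pair. Both sets come from the same 4 libraries and filter, and their difference was not tested.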

How the data were processed

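The submitters' processing notes name HISAT, a read aligner, and HTSeq, a read counter. For their versions, for the genome build and annotation, and for strand, nothing is stated (not given in the sources used here). Each gene has 1 signal value per library in the table that the authors deposited. Its columns sum to between 905782.9 and 1134691, so the values are not plain CPM, although the table's name says so. Dividing each column by its lowest non-zero value gave whole numbers for 100% of the values, within a relative tolerance of 1e-06, and these were taken as reads. Every row had an identifier, and 0 columns belonged to no sample.

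Groups were taken from the sample titles. Replicate libraries were distinct, with a chi-square per degree of freedom of 135 and 89.4. Limma 3.58.1 in R 4.3.3 was run on log2(value + 1) with a trended prior, over 17726 genes at 1 or more in at least 2 libraries, with Benjamini-Hochberg adjustment over all of them. Such fold changes understate those of low genes. The alternatives were edgeR 4.0.16 with TMM scaling and its quasi-likelihood test, DESeq2 1.42.0, both fitted to those reads, other pseudocounts, scalings, limits and filters, a replicate block, and leaving out each library. The script was checked on simulated data. Ratios of reads carry exact 95% conditional intervals.

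The members, lists and rules were chosen with earlier results of these data known. Genes named were the 10 members with the highest mean, the extremes of the ratio between the CsBRC1-RNAi libraries among members with a mean of at least 5, members next to each other, the lowest members, those at the limits, and up to 10 flanking genes called. Those named for having no wild-type read, or for lying in or near the chromosome 4 stretch, were chosen after their values were seen.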

Additional observations from a re-analysis of the deposited data

How the results depend on the processing

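Size and makeup of the group followed the limits. With wild-type limits of 0.25 and 1 there were 59 and 260 members, 28 and 70 of them at least 2-fold apart between the CsBRC1-RNAi libraries. The limit of 0.25 gave a median log2 ratio of 0.38, and the limit of 1 a median level of 2.69 and 15 neighbouring pairs. With CsBRC1-RNAi limits of 2 and 5 there were 63 and 25 members, with median levels of 7.41 and 12.9, 27 and 10 members at least 2-fold apart, and 4 pairs and 1 pair; the limit of 5 gave a ratio of 0.32 and 4 members without a wild-type read. At 4-fold in place of 2-fold, 23 members were apart, and 3 pairs had identifier numbers at most 10 apart. Plain CPM over the recovered reads shifted the median log2 change of all genes by -0.19 and gave a ratio of 0.37 and 106 members, all among the 113.

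Leaving out a library gave 113 to 202 members (202 without wild type 1, 193 without wild type 2), median levels of 2.64 (without wild type 1) to 3.8, 55 to 73 members at least 2-fold apart (73 without wild type 2), 15 to 36 without a wild-type read (26 without wild type 1, 36 without wild type 2) and 7 to 12 pairs (11 without wild type 1, 12 without wild type 2). Limma then called 0 to 38 members and 0 to 47 flanking genes; with 0 calls in all, without wild type 2, 4571 genes had an unadjusted p under 0.05. A lone library is assumed to vary like the other genotype. DESeq2 called 104 members and 55 flanking genes. Of the flanking genes 16.2% were called higher and 10% lower, against 12.8% and 9.29% of all genes. With the replicate number as a block limma called 71 members and 29 flanking genes. Here 9.52% of the flanking genes were called higher and 4.29% lower, against 5.48% and 3.32% of all genes. The replicate differences of the genotypes correlated at 0.0379 across genes and no label pairs the libraries. The causes of these shifts were not tested, apart from those set by the limits. The other 44 values kept close to those reported: within 1.5 times for counts and within the spread for levels. For the median log2 ratio a small absolute difference was allowed, such as 0.14 at the wild-type limit of 1 against 0.22. Some of the 44 could not have changed. The CsBRC1-RNAi limit removed no gene, so 113 members, 15 without a wild-type read and 7 pairs were fixed without either CsBRC1-RNAi library. Genes without a wild-type read pass any wild-type limit, so their count of 15 at limits of 0.25 and 1 was fixed too. Annotation groups were not run, since no identifier was matched.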

Other observations

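Large ratios between the CsBRC1-RNAi libraries were also seen outside the members. Another 37 genes at 1 or more in both libraries were at least 8-fold higher in CsBRC1-RNAi 2. Their wild-type mean ran from 0.493 to 18.9, with a median of 1.96, and was under 2 in 19 of them. In 26 of the 37, CsBRC1-RNAi 1 was within 2-fold of the wild-type mean, so CsBRC1-RNAi 2 alone stood high, and in 6 it was at least 2-fold above it. No cause of these differences was tested.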
